A study of Mus musculus with 16 samples.

Results

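The 7 genes described here, Retnla, Chil3, Arg1, Mrc1, Ccl17, Ccl22 and Ccl24, are products of the alternative, or type 2, activation of mouse macrophages. They were taken by symbol from the platform annotation, out of 19938 genes measured, and each was read by 1 probe set. Total lung RNA was hybridised to 16 Affymetrix whole-transcript arrays in 8 groups of C57BL/6 mice, aged 10 to 12 weeks per the labels. At day 60 the groups were BLT1-/-KRasLA1 and BLT1+/+KRasLA1 lungs given crystalline silica (CS), and a phosphate-buffered saline (PBS) group of each of these genotypes. At day 2 they were BLT1-/- and BLT1+/+ lungs given CS and a PBS group of each, none with the KRasLA1 allele. Both agents were instilled into the trachea. Each CS group held 3 lungs, which are biological replicates per the labels, and each PBS group was 1 array of RNA pooled from 3 mice, so a PBS value has no spread of its own. BLT1 is the high-affinity receptor of leukotriene B4 on leukocytes, and BLT1-/- mice lack it. KRasLA1 is a latent oncogenic allele that recombines at random in scattered cells of the body, and lung tumours arise from it. All day 60 lungs carried KRasLA1 and no day 2 lung did, so day and allele cannot be told apart.

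Interleukin 4 and interleukin 13, made by T helper 2 cells and innate lymphoid cells, act on macrophages through the receptor chain Il4ra and the transcription factor Stat6. In the mouse this pathway switches on secreted proteins, an enzyme, a lectin receptor and chemokines by which alternatively activated macrophages are recognised. Resting alveolar macrophages of the mouse already make some of these products, above all the chitinase-like protein Chil3 and the mannose receptor Mrc1. Silica particles that reach the alveoli are taken up by these cells.

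Array medians lay between 8.25 and 8.34 on the log2 scale, on which all levels below are given. Airway epithelial markers were present on every array, with a mean over 10 genes between 10.88 and 11.77, and so were alveolar macrophage markers, with a mean over 12 genes between 10.10 and 11.08. Sex-linked genes set 3 day 60 arrays apart. The Y-linked gene Eif2s3y had a level of 10.09 in replicate 2 of the BLT1+/+KRasLA1 CS lungs, of 9.04 in the BLT1-/-KRasLA1 PBS pool and of 9.68 in the BLT1+/+KRasLA1 PBS pool, against 4.27 to 4.74 on the other 13 arrays. Day 60 results are also given without that lung and without each pool in turn. That lung alone of the day 60 CS lungs carried Y-linked RNA, whereas both day 60 pools did. Leaving out the lung or 1 pool therefore cannot separate sex from silica at day 60. Ccl24 was dim, with a mean of 7.52 over all arrays against 7.32 at the upper edge of the lowest 25% of gene means. In RNA of whole lungs, fewer cells of a type and less RNA per cell cannot be told apart.

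At day 60, silica-exposed KRasLA1 lungs held more RNA of 4 of the 7 genes than the PBS pools, averaged over both BLT1 genotypes. Retnla rose 2.25-fold, Ccl22 2.26-fold, Ccl17 2.61-fold and Chil3 1.91-fold. At day 2, 3 of the 7 rose: Retnla 1.63-fold, Ccl22 1.54-fold and Arg1 3.19-fold. Retnla and Ccl22 thus rose at both times, while Chil3 and Ccl17 passed at day 60 and Arg1 at day 2. None of the 7 fell at either time. The test was limma's moderated test on the group means of all 16 arrays, with Benjamini-Hochberg adjustment over 19938 genes and a threshold of 0.05. By the same rule 3.35% of all genes were higher and 0.677% lower at day 60, and 8.03% were higher and 4.37% lower at day 2. In single genotypes, 2 of the 7 rose in BLT1-/-KRasLA1 lungs at day 60, Retnla and Ccl22, where 1.1% of all genes were higher, and 1 rose in BLT1+/+KRasLA1 lungs, Ccl22, where 0.687% were. At day 2 Retnla alone rose in each genotype, where 5.19% of all genes were higher in BLT1-/- and 0.853% in BLT1+/+ lungs. The median change of the 7 genes was 1.17 on the log2 scale at day 60, where that of all genes was -0.03, and 0.63 at day 2, where that of all genes was -0.02. All CS lungs lay above both pools of their day in 6 of the 7 genes at each time, beside 9.66% of all genes at day 60 and 12.1% at day 2. The exception was Ccl24 at day 60 and Mrc1 at day 2.

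**Figure D1:**
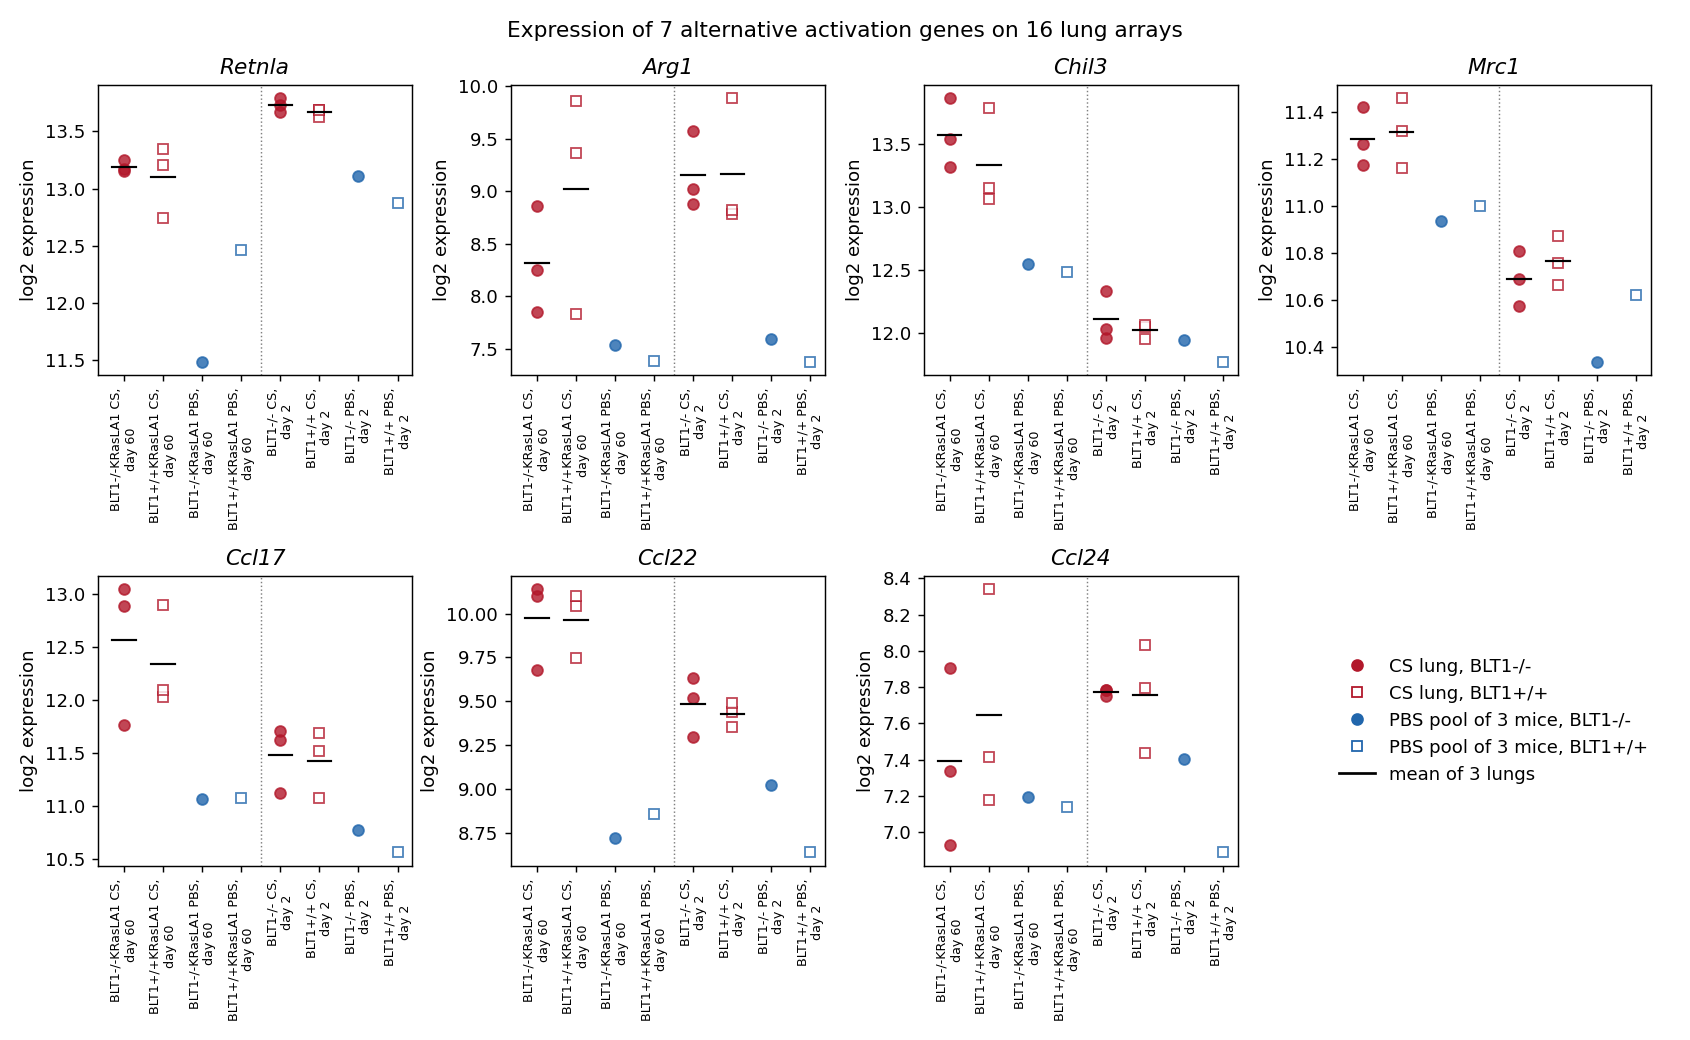
Log2 expression level of each of the 7 genes by group, with a point for each CS lung, a bar for the mean of 3 lungs and a point for each PBS pool. Retnla was highest in day 2 CS lungs, at 13.63 to 13.79, while Chil3 was highest in day 60 CS lungs, at 13.06 to 13.86.

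Each mean response is set against 2 PBS arrays, and its dependence on 1 pool could not be tested. An additive fit without 1 pool returns the response of the genotype whose pool is left, and not the average. A call lost in such a fit therefore does not show how the average depends on the pool. Without the BLT1-/-KRasLA1 pool, the day 60 values were those of BLT1+/+KRasLA1 lungs: Ccl22 1.10, Retnla 0.64, Chil3 0.85 and Ccl17 1.26. Without the BLT1+/+KRasLA1 pool they were those of BLT1-/-KRasLA1 lungs, with Retnla at 1.70, Chil3 at 1.02 and Ccl17 at 1.50. At day 2 Arg1 was at 1.78 without the BLT1-/- pool and at 1.56 without the BLT1+/+ pool. Ccl22 was at 0.79 and 0.46 in the same order. Without BLT1+/+KRasLA1 CS replicate 2, the lung with the Y-linked RNA, the same 4 genes passed at day 60, with Retnla at 1.15, Ccl22 at 1.14, Ccl17 at 1.46 and Chil3 at 0.98.

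Retnla encodes a small secreted protein of the resistin family, known in the mouse as a product of alternatively activated macrophages and of airway epithelium in allergic lungs. It was read by probe set 10436095, and the gene lies at chr16:48842609-48844461 of GRCm38.p6. At day 60 its level was 13.25, 13.18 and 13.15 in BLT1-/-KRasLA1 CS lungs and 13.35, 13.21 and 12.75 in BLT1+/+KRasLA1 CS lungs, against 11.49 in the BLT1-/-KRasLA1 PBS pool and 12.46 in the BLT1+/+KRasLA1 PBS pool. At day 2 it was 13.73, 13.79 and 13.67 in BLT1-/- CS lungs and 13.69, 13.63 and 13.69 in BLT1+/+ CS lungs, against 13.11 in the BLT1-/- PBS pool and 12.88 in the BLT1+/+ PBS pool. The CS lungs of a day overlapped between genotypes and lay above both pools of that day. The order of the groups was day 2 CS highest and day 60 PBS lowest, and between them the day 2 PBS pools lay within the range of the BLT1+/+KRasLA1 CS lungs.

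The Retnla response averaged 1.17 ± 0.11 at day 60 (SE, limma, adjusted p = 7.43e-05) and 0.71 ± 0.11 at day 2 (adjusted p = 0.00143), higher in 6 of 6 lungs each time. Day 60 rank by p was 17 of all genes. In single genotypes it rose at day 60 in BLT1-/-KRasLA1 lungs by 1.70 ± 0.16 (adjusted p = 0.000151), and the response of BLT1+/+KRasLA1 lungs, 0.64 ± 0.16, did not pass (0.0885; 0.82 and 0.000204 without replicate 3). The CS lungs of these genotypes differed by 0.09 ± 0.11, whereas their pools were 11.49 and 12.46. Set against the BLT1+/+KRasLA1 pool, the BLT1-/-KRasLA1 lungs gave 0.73 (adjusted p = 0.0510), and set against the BLT1-/-KRasLA1 pool, the BLT1+/+KRasLA1 lungs gave 1.61 (0.000231). At day 2 it rose by 0.62 ± 0.16 in BLT1-/- lungs (adjusted p = 0.0326) and by 0.79 ± 0.16 in BLT1+/+ lungs (0.0300). Each of these day 2 calls was lost without replicate 2 or without replicate 3 of that genotype, with adjusted p between 0.0520 and 0.0890. The BLT1+/+ call was also lost without BLT1-/-KRasLA1 CS replicate 2, a lung that enters it only through the shared estimate of spread (0.0513), and against the BLT1-/- pool (0.0813). Of the family, Retnlb is best known as a goblet cell product of the gut. It rose by 0.78 ± 0.13 at day 2 (adjusted p = 0.00254) and was at 0.08 ± 0.13 at day 60 (0.862). Retnlb was dim, at 6.59 to 7.13 in day 2 CS lungs, against 5.93 and 6.38 in the day 2 pools. On every array it lay below 7.32, the upper edge of the lowest 25% of gene means. Retn, resistin itself and a fat cell hormone of the mouse, fell by 1.16 on the log2 scale at day 2 (adjusted p = 0.0298). Among 9 measured fat tissue markers it was the 1 called lower then, beside 4.37% of all genes. The mean of these markers, Retn included, was also lower in day 2 CS lungs. It was 8.29 to 8.72 in BLT1-/- and 8.16 to 8.42 in BLT1+/+ CS lungs, against 8.93 in the BLT1-/- and 8.77 in the BLT1+/+ PBS pool.

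Chil3, also called Ym1, is a chitin-binding protein without chitinase activity that alveolar macrophages secrete and that can form crystals in the mouse lung. Probe set 10501020 read it, and the gene is at chr3:106147554-106167564 of GRCm38.p6. At day 60 its level was 13.86, 13.32 and 13.54 in BLT1-/-KRasLA1 CS lungs and 13.78, 13.15 and 13.06 in BLT1+/+KRasLA1 CS lungs, against 12.55 in the BLT1-/-KRasLA1 PBS pool and 12.48 in the BLT1+/+KRasLA1 PBS pool. The day 2 levels were 12.33, 12.03 and 11.97 in BLT1-/- CS lungs and 11.95, 12.05 and 12.07 in BLT1+/+ CS lungs, against 11.95 in the BLT1-/- PBS pool and 11.78 in the BLT1+/+ PBS pool. All day 60 arrays, PBS pools included, lay above all day 2 arrays. At day 60 the CS lungs stood clear of the pools, whereas at day 2 the lowest CS lung, at 11.952, was barely above the BLT1-/- PBS pool, at 11.947.

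The Chil3 response was 0.93 ± 0.17 at day 60 (limma, adjusted p = 0.00638, 6 of 6 lungs) and 0.21 ± 0.17 at day 2 (0.525, 6 of 6 lungs). In single genotypes at day 60 it was 1.02 ± 0.24 in BLT1-/-KRasLA1 lungs (adjusted p = 0.0606) and 0.85 ± 0.24 in BLT1+/+KRasLA1 lungs (0.158), neither past the threshold. Of its relatives, Chil4 rose by 0.92 ± 0.16 at day 60 (adjusted p = 0.00506) and was at 0.10 ± 0.16 at day 2. Chil3 and Chil4 are near-identical copies in the mouse, so hybridisation of RNA of the one to probes of the other was possible and was not tested. Chil1, a chitinase-like protein that macrophages and epithelium make, rose by 0.38 ± 0.05 at day 60 (adjusted p = 0.000826) and, at day 2, by 0.31 ± 0.05 (0.00176).

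Arg1, arginase 1, splits arginine into urea and ornithine and so competes with nitric oxide synthase for arginine. Probe set 10368343 read it, and the gene is at chr10:24915207-24927470 of GRCm38.p6. At day 60 its level was 8.85, 7.85 and 8.25 in BLT1-/-KRasLA1 CS lungs and 9.86, 9.36 and 7.84 in BLT1+/+KRasLA1 CS lungs, against 7.54 in the BLT1-/-KRasLA1 PBS pool and 7.38 in the BLT1+/+KRasLA1 PBS pool. Its day 2 levels were 9.02, 8.88 and 9.57 in BLT1-/- CS lungs and 8.79, 8.82 and 9.89 in BLT1+/+ CS lungs, against 7.60 in the BLT1-/- PBS pool and 7.38 in the BLT1+/+ PBS pool. The pools were alike at both times, and every CS lung was above them. The spread among lungs was wide, with an SD of 1.05 in BLT1+/+KRasLA1 CS lungs, 0.51 in BLT1-/-KRasLA1 CS lungs, 0.36 in BLT1-/- CS lungs and 0.63 in BLT1+/+ CS lungs (n = 3 each).

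Arg1 rose by 1.67 ± 0.44 at day 2 (limma, adjusted p = 0.0241, 6 of 6 lungs). At day 60 it was at 1.21 ± 0.44, which did not pass (0.190, 6 of 6 lungs). BLT1+/+KRasLA1 CS replicate 3 was the lowest of the 6 day 60 CS lungs, and without it the day 60 response was 1.50 (adjusted p = 0.0155). Of 10 measured genes of arginine and polyamine metabolism, 5 rose at day 2 and none fell, with a list median of 0.24. Of all genes 8.03% were higher at day 2 and 3.35% at day 60. The spermidine synthase Srm rose by 0.93, the ornithine decarboxylase Odc1 by 0.65, the mitochondrial arginase Arg2 by 0.82 ± 0.19 (adjusted p = 0.0119) and Azin1, which protects ornithine decarboxylase from breakdown, by 0.31. At day 60 2 of the 10 rose, the arginine transporter Slc7a2 by 0.51 ± 0.10 (adjusted p = 0.0137) and the inducible nitric oxide synthase Nos2 by 0.53 ± 0.12 (0.0201), and Arg2 was at 0.52 ± 0.19 (0.178). Nos2 is the usual mark of classical rather than alternative activation.

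Mrc1 is the mannose receptor CD206, an endocytic lectin of resident macrophages and of lymphatic and liver endothelium. Probe set 10469358 read it, and the gene is at chr2:14229414-14332023 of GRCm38.p6. At day 60 its level was 11.42, 11.17 and 11.26 in BLT1-/-KRasLA1 CS lungs and 11.46, 11.32 and 11.16 in BLT1+/+KRasLA1 CS lungs, against 10.94 in the BLT1-/-KRasLA1 PBS pool and 11.00 in the BLT1+/+KRasLA1 PBS pool. The day 2 levels were 10.69, 10.58 and 10.81 in BLT1-/- CS lungs and 10.76, 10.87 and 10.67 in BLT1+/+ CS lungs, against 10.34 in the BLT1-/- PBS pool and 10.62 in the BLT1+/+ PBS pool. Its range was the narrowest of the 7 genes, 2.17-fold from the lowest to the highest array. All day 60 arrays were above all day 2 arrays, as for Chil3. At day 60 every CS lung was above both pools, and at day 2 BLT1-/- CS replicate 2 was below the BLT1+/+ PBS pool.

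The response of Mrc1 was 0.33 ± 0.09 at day 60 (adjusted p = 0.0664) and 0.25 ± 0.09 at day 2 (0.105), in 6 of 6 lungs each time, and neither passed. At day 60 it passed without BLT1+/+KRasLA1 CS replicate 3 (0.37, adjusted p = 0.0284). The 6 measured markers of lymphatic and liver-like endothelium, which also carries Mrc1, had a mean of 9.89 to 10.06 in BLT1-/-KRasLA1 CS lungs and 9.85 to 9.98 in BLT1+/+KRasLA1 CS lungs, against 9.92 in each day 60 pool, and none of them passed at day 60. Their part in the level of Mrc1 was not tested.

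Ccl17 and Ccl22 are the chemokines that bind Ccr4, by which they attract T helper 2 and regulatory T cells. Dendritic cells make both as well as macrophages. The 2 genes are neighbours on chromosome 8 of the mouse, with Cx3cl1 as the only other protein-coding gene between them in the RefSeq table. Ccl17 was read by probe set 10574226 (chr8:94809380-94812038 of GRCm38.p6) and Ccl22 by probe set 10574213 (chr8:94745684-94751388).

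At day 60 Ccl17 was at 13.05, 11.76 and 12.88 in BLT1-/-KRasLA1 CS lungs and 12.90, 12.02 and 12.09 in BLT1+/+KRasLA1 CS lungs, against 11.06 in the BLT1-/-KRasLA1 PBS pool and 11.08 in the BLT1+/+KRasLA1 PBS pool. At day 2 it was 11.12, 11.62 and 11.71 in BLT1-/- CS lungs and 11.07, 11.68 and 11.52 in BLT1+/+ CS lungs, against 10.78 in the BLT1-/- PBS pool and 10.56 in the BLT1+/+ PBS pool. Every CS lung was above both pools of its day, and the day 60 CS lungs were above all other arrays. Within day 60 the lungs were spread widely, with an SD of 0.70 in BLT1-/-KRasLA1 and 0.48 in BLT1+/+KRasLA1 CS lungs (n = 3 each).

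Ccl22 at day 60 was at 10.14, 9.68 and 10.10 in BLT1-/-KRasLA1 CS lungs and 10.04, 10.10 and 9.75 in BLT1+/+KRasLA1 CS lungs, against 8.72 in the BLT1-/-KRasLA1 PBS pool and 8.86 in the BLT1+/+KRasLA1 PBS pool. Day 2 levels were 9.30, 9.63 and 9.52 in BLT1-/- CS lungs and 9.44, 9.49 and 9.36 in BLT1+/+ CS lungs, against 9.02 in the BLT1-/- PBS pool and 8.64 in the BLT1+/+ PBS pool. The groups fell into 3 steps that did not overlap, with day 60 CS highest, day 2 CS next and the 4 pools lowest, and the genotypes overlapped within each step.

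Ccl22 rose by 1.18 ± 0.13 at day 60 (limma, adjusted p = 0.000215, 6 of 6 lungs) and by 0.63 ± 0.13 at day 2 (0.00705, 6 of 6 lungs). It was the gene of the 7 that rose in both day 60 genotypes taken alone, by 1.25 ± 0.18 in BLT1-/-KRasLA1 lungs (adjusted p = 0.00585) and by 1.10 ± 0.18 in BLT1+/+KRasLA1 lungs (0.0156; 1.06 and 0.0536 without replicate 1). At day 2 it was at 0.46 ± 0.18 in BLT1-/- lungs (adjusted p = 0.145) and at 0.79 ± 0.18 in BLT1+/+ lungs (0.0575, and 0.0375 with the day 2 replicate number as a block). Ccl17 rose by 1.38 ± 0.31 at day 60 (adjusted p = 0.0208, 6 of 6 lungs; 0.0569 when the day 60 arrays were fitted alone) and was at 0.78 ± 0.31 at day 2 (0.120, 6 of 6 lungs). Cx3cl1, the gene between them, which encodes a membrane-bound chemokine of epithelium and endothelium, was at 0.04 ± 0.18 at day 60 (adjusted p = 0.959) and at -0.41 ± 0.18 at day 2 (0.177); it was chosen after its values were seen.

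Ccl24, or eotaxin 2, attracts eosinophils through Ccr3. Probe set 10534493 read it (chr5:135569935-135573123 of GRCm38.p6). At day 60 its level was 7.90, 6.93 and 7.34 in BLT1-/-KRasLA1 CS lungs and 8.34, 7.42 and 7.18 in BLT1+/+KRasLA1 CS lungs, against 7.19 in the BLT1-/-KRasLA1 PBS pool and 7.14 in the BLT1+/+KRasLA1 PBS pool. Day 2 levels were 7.79, 7.78 and 7.75 in BLT1-/- CS lungs and 7.44, 7.79 and 8.03 in BLT1+/+ CS lungs, against 7.40 in the BLT1-/- PBS pool and 6.89 in the BLT1+/+ PBS pool. The day 60 CS lungs ran on both sides of the pools. The response was 0.35 ± 0.27 at day 60 (adjusted p = 0.672, 5 of 6 lungs) and 0.62 ± 0.27 at day 2 (0.178, 6 of 6 lungs), so no change passed. Of 10 eosinophil markers, 3 rose at day 60 and none fell, beside 3.35% of all genes that were higher. Among the 3 was the eosinophil-associated ribonuclease Rnase2a, at 3.44 ± 0.57 (limma, adjusted p = 0.00368). The list mean was 7.91 to 8.20 in BLT1-/-KRasLA1 CS lungs and 8.14 to 8.33 in BLT1+/+KRasLA1 CS lungs, against 7.52 in the BLT1-/-KRasLA1 PBS pool and 7.74 in the BLT1+/+KRasLA1 PBS pool, and 3 of the 10 were below the edge of the lowest 25% of gene means on all arrays. Rnase2a is also made by alternatively activated macrophages of the mouse. It enters the list mean, and its part in that mean was not tested.

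**Figure D2:**
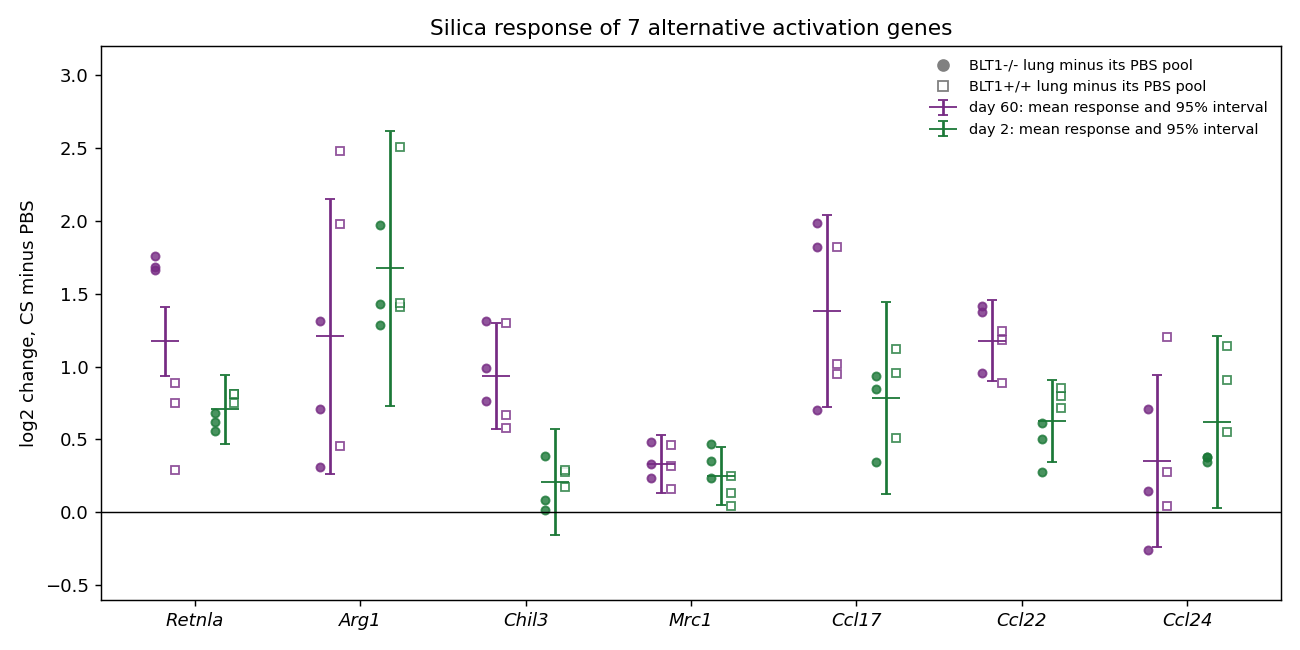
Silica response of each gene as the log2 difference of CS lungs from PBS, at day 60 and at day 2, with the mean over BLT1 genotypes and its 95% confidence interval and a point for each lung against the pool of its own genotype. At day 60 the interval was 0.94 to 1.41 for Retnla and 0.90 to 1.46 for Ccl22, while that of Ccl24 ran from -0.24 to 0.94.

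The 4 genes that rose at day 60 are shown with the 250 bases before their transcription start, since Stat6 acts on its target genes through sites of this kind. The sequences are RefSeq's on GRCm38.p6, in lower case 5′ to 3′ on the gene's strand, and capitals mark TTCNNNNGAA, the form of site that Stat6 prefers, and TATAAA, the TATA box. The windows are chr16:48842359-48842608 on the plus strand for Retnla, chr3:106167565-106167814 on the minus strand for Chil3, chr8:94810203-94810452 on the plus strand for Ccl17 and chr8:94745434-94745683 on the plus strand for Ccl22. The Ccl17 window lies before a start inside the full span of that gene.
Retnla: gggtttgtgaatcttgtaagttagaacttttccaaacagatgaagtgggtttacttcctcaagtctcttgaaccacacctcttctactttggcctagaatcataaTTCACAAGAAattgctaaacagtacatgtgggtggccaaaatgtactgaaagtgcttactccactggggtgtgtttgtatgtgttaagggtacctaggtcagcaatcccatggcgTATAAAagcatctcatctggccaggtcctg
Chil3: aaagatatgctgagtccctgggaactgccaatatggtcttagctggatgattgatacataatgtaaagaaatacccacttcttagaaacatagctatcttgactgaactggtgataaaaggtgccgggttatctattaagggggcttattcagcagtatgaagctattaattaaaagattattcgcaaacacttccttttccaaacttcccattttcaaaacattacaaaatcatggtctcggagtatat
Ccl17: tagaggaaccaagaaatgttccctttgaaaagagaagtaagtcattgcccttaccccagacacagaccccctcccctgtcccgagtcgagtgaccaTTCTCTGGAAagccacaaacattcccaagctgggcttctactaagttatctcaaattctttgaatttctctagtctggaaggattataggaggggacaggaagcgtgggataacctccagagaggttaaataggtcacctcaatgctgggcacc
Ccl22: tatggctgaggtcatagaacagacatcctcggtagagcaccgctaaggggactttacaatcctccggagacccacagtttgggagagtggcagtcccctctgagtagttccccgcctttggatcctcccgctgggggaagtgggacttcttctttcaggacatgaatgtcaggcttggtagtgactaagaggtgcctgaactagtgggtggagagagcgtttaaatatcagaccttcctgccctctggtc
Retnla held TTCNNNNGAA at -145 to -136 and TATAAA at -30 to -25, counted back from the start, and Ccl17 held TTCNNNNGAA at -154 to -145. The Chil3 and Ccl22 windows held neither. Both strands were searched, and TTCNNNNGAA, which reads the same way on both, was found in 5.854% and TATAAA in 12.368% of 32851 mouse promoters of the same length. GAGGAA, a core bound by the macrophage factor PU.1, was found in Retnla, Ccl17 and Mrc1 and in 23.253% of all promoters, and the NF-kB site in none of the 5 members with a sequence and in 3.899% of all. A match is a string of letters and not a shown site of binding, and a window without one says nothing of sites elsewhere.

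No difference between BLT1 genotypes was detected in these genes in silica-exposed lungs. In CS lungs, 0 of the 7 genes differed between BLT1-/-KRasLA1 and BLT1+/+KRasLA1 at day 60 or between BLT1-/- and BLT1+/+ at day 2 (limma), and 0 had an unadjusted p under 0.05 at either time. Of all genes 0.0401% were called at day 60 and 0.0201% at day 2. The CS lungs of the genotypes overlapped in every one of the 7 genes at both times, while they did not overlap in 10.5% of all genes at day 60 and 12.4% at day 2. Arg1 had the largest difference, -0.70 ± 0.44 at day 60 (adjusted p = 0.967), with a 95% interval from -1.64 to 0.24. The intervals were tighter for Mrc1, -0.23 to 0.17 at day 60 and -0.27 to 0.12 at day 2, and for Retnla, -0.15 to 0.33 at day 60 and -0.17 to 0.30 at day 2. For Ccl17 the interval ran from -0.43 to 0.89 at day 60. Of 68 other genes of the pathway lists described below, 0 differed at either time after adjustment. Of these 68, 2 at day 60 and 8 at day 2 had an unadjusted p under 0.05 (limma). Of all 19938 genes, 810 at day 60 and 1735 at day 2 did.

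The difference between genotypes in the silica response itself was called for 0 genes of 19938 at either time (limma), so that the share called was 0%. At unadjusted p under 0.05 it took in 396 genes at day 60 and 896 at day 2, of which 1 and 0 were among the 7. That gene was Retnla at day 60, with 1.06 ± 0.22 (limma, adjusted p = 0.9999), which ranked 2 of all genes. The CS lungs of the genotypes overlapped, at 13.15 to 13.25 in BLT1-/-KRasLA1 and 12.75 to 13.35 in BLT1+/+KRasLA1 lungs, whereas the BLT1-/-KRasLA1 pool, at 11.49, was lower than the BLT1+/+KRasLA1 pool, at 12.46.

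Between the times, day 60 CS lungs with KRasLA1 held more Chil3, Ccl17, Mrc1 and Ccl22 and less Retnla than day 2 CS lungs without it. Chil3 was higher by 1.38 ± 0.12 (limma, adjusted p = 5.49e-06), Ccl17 by 1.00 ± 0.22 (0.00385), Mrc1 by 0.57 ± 0.07 (3.8e-05) and Ccl22 by 0.51 ± 0.09 (0.000992), and Retnla was at -0.55 ± 0.08 (0.00018). The lungs of the 2 times overlapped in none of these 5, beside 6.47% of all genes that were higher and 6.93% that were lower without overlap. Arg1, at -0.49 ± 0.31, and Ccl24, at -0.25 ± 0.19, did not pass. Such changes were common, with 12.2% of all genes higher and 13.8% lower. Between the PBS pools of the 2 times Retnla alone of the 7 passed, at -1.02 ± 0.13 (limma, adjusted p = 0.0126), and it ranked 5 by p. Of all genes 0.231% were lower and 0.166% higher. Retnla was at 11.49 in the BLT1-/-KRasLA1 and 12.46 in the BLT1+/+KRasLA1 pool, against 13.11 in the BLT1-/- and 12.88 in the BLT1+/+ pool. The error comes from CS lungs and does not measure the spread between pools. The day 60 pools carried Y-linked RNA and the day 2 pools did not. Mrc1 was at 0.49 ± 0.11 (adjusted p = 0.0938) and Chil3 at 0.66 ± 0.21 (0.232) in the same comparison. Retnla thus ran the other way from Chil3 and Mrc1 between the times, in lungs given silica and, for Retnla past the threshold, in pools that were not.

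The mean response at day 60 minus that at day 2 was called for 0 of the 7 genes, beside 2.35% of all genes. Beside 2804 of all 19938 genes, 3 of the 7 had an unadjusted p under 0.05 (limma). These were Chil3 at 0.73 ± 0.24, Ccl22 at 0.55 ± 0.18 and Retnla at 0.47 ± 0.16, with adjusted p of 0.158, 0.160 and 0.163. For Retnla it passed without BLT1+/+KRasLA1 CS replicate 3 (0.55, adjusted p = 0.00227).

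Over all pathway lists, 20 of 68 measured genes rose and 1 fell at day 60, and 19 rose and 2 fell at day 2, beside the 3.35% and 8.03% of all genes that were higher. Of 10 type 2 cytokines and alarmins, 2 rose at day 60 and 1 at day 2, and none fell, with medians of -0.02 and 0.04. Il33, an alarmin released by damaged epithelium, rose by 0.54 ± 0.09 at day 60 (adjusted p = 0.00279) and, at day 2, by 1.23 ± 0.09 (1.01e-05), and its response differed between the times by -0.69 ± 0.12 (0.00914). Its level was 12.26 to 12.47 in day 60 CS lungs, against 11.72 and 11.97 in the day 60 pools, and 12.74 to 13.12 in day 2 CS lungs, against 11.60 and 11.80 in the day 2 pools. Csf2, the growth factor of alveolar macrophages, rose by 0.82 ± 0.21 at day 60 (adjusted p = 0.0400) and was at 0.43 ± 0.21 at day 2 (0.212). Il4, Il13 and Il5, named after their values were seen, were at -0.02 ± 0.10, -0.05 ± 0.14 and 0.09 ± 0.10 at day 60, and at 0.05 ± 0.10, -0.08 ± 0.14 and -0.08 ± 0.10 at day 2. Their levels ranged from 6.92 to 7.28, from 7.48 to 8.16 and from 5.76 to 6.25 over all 16 arrays, so Il4 and Il5 lay below the edge of the lowest 25% of gene means and a change in few cells may not be seen.

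Receptors and signalling genes of the pathway changed in 0 of 10 at day 60, where 5 had an unadjusted p under 0.05 (limma), and rose in 2 of 10 at day 2, with medians of 0.16 and 0.09. Il4ra was at 0.28 ± 0.08 at day 60 (adjusted p = 0.0921) and rose by 0.40 ± 0.08 at day 2 (0.00703). Cish, a feedback inhibitor of cytokine signalling, rose by 0.26 at day 2 (adjusted p = 0.0328). Stat6 was at 0.13 ± 0.07 at day 60 (adjusted p = 0.471) and at -0.16 ± 0.07 at day 2 (0.170). Of 9 transcription factors linked to alternative activation, 2 rose at day 60 and 3 at day 2, and none fell. Egr2 rose at both times, by 0.66 ± 0.15 at day 60 (adjusted p = 0.0215) and, at day 2, by 0.71 ± 0.15 (0.00701). Irf4, which acts in alternatively activated macrophages, dendritic cells and lymphocytes, rose by 0.97 ± 0.18 at day 60 (adjusted p = 0.00661) and was at -0.43 ± 0.18 at day 2 (0.140), and its response differed between the times by 1.40 ± 0.25 (0.00953). Myc was at 0.28 ± 0.12 at day 60 (adjusted p = 0.292) and rose by 0.99 ± 0.12 at day 2 (0.000367).

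Of 26 other genes known as targets of alternative activation, 12 rose and 1 fell at day 60, and 8 rose and 2 fell at day 2, with medians of 0.36 and 0.28. At day 60 Igf1, a growth factor that macrophages secrete in repair, rose by 1.03 ± 0.13 (adjusted p = 0.000826), the lipid receptor Trem2 by 1.14, the beta-glucan receptor Clec7a by 0.96 and the scavenger receptor Msr1 by 1.60. At day 2 the interleukin 1 receptor antagonist Il1rn rose by 2.22 ± 0.25 and Msr1 by 1.70 ± 0.26, and the lectin Cd209a, also a dendritic cell gene, fell by 0.85. Several of these genes, such as Il1rn and Msr1, answer to inflammatory signals too.

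**Figure D3:**
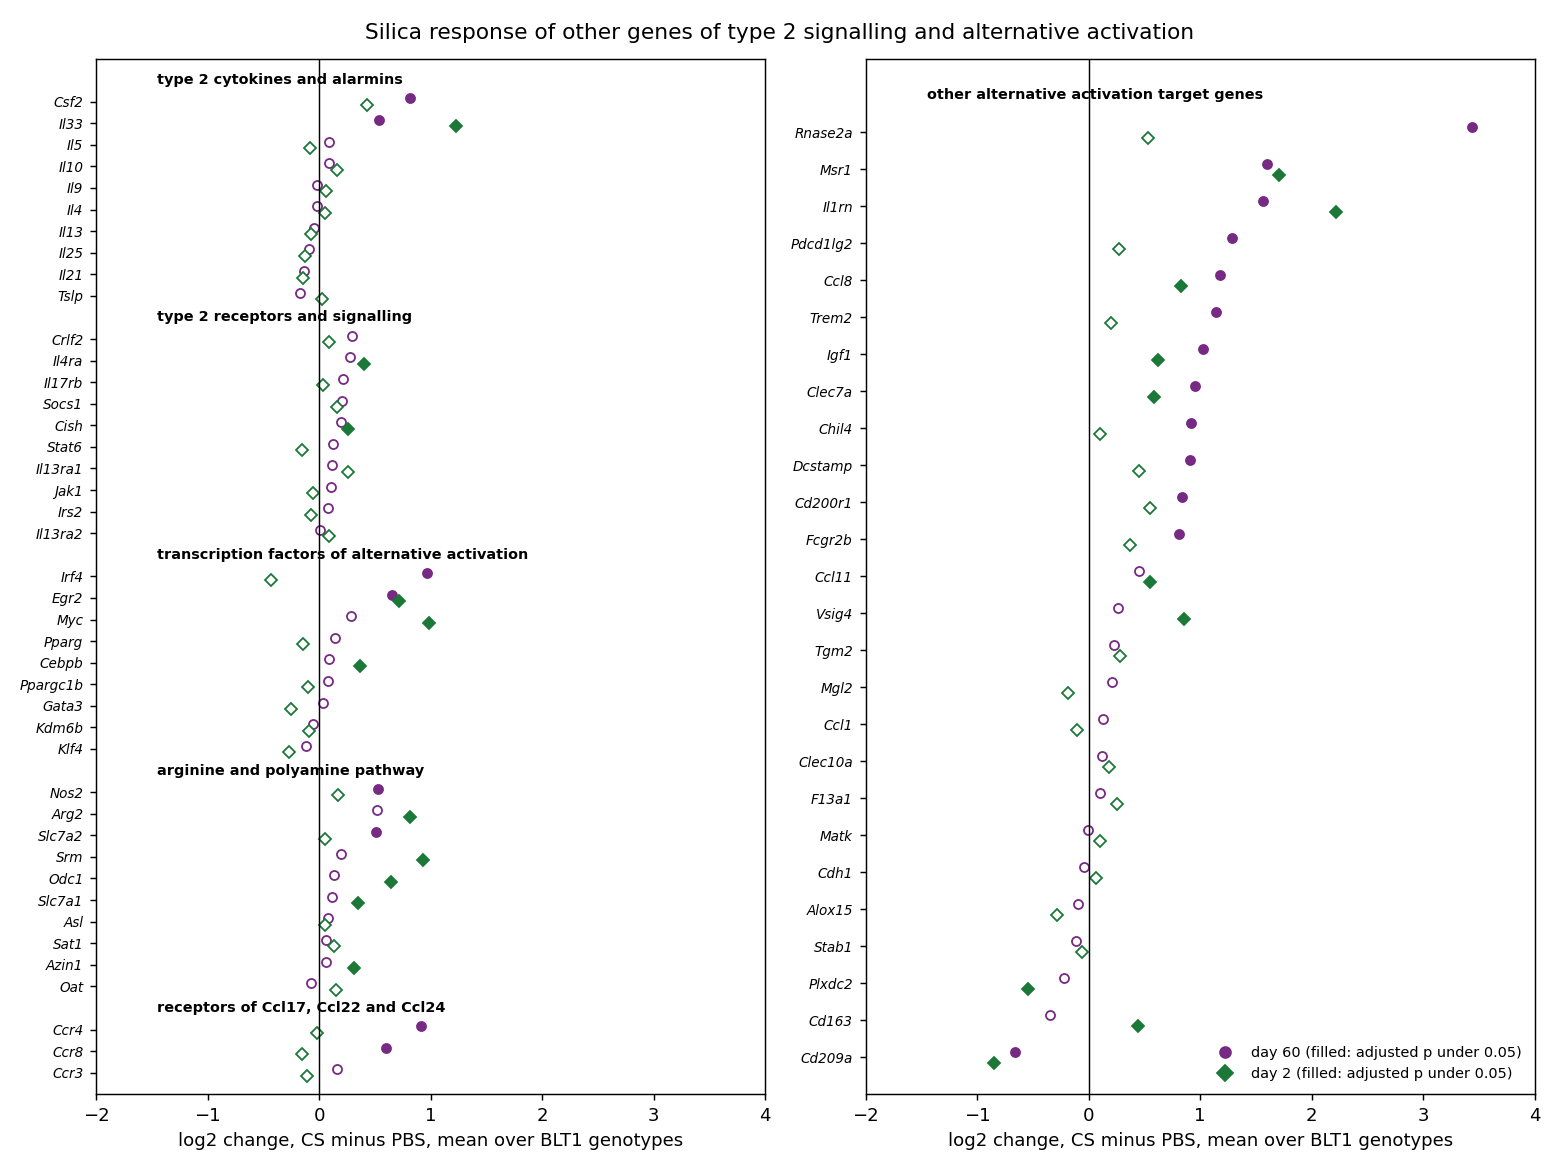
Silica response, as the log2 difference of CS lungs from PBS averaged over BLT1 genotypes, of every measured gene of the pathway lists at day 60 and day 2, with filled points for genes with adjusted p under 0.05. Il33 was at 0.54 at day 60 and 1.23 at day 2, while Irf4 was at 0.97 and -0.43 and Ccr4 at 0.91 and -0.01.

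Of the 3 genes on the receptor list, Ccr4, Ccr8 and Ccr3, 2 rose at day 60, beside 3.35% of all genes that were higher. At day 2 0 changed, and none had an unadjusted p under 0.05 (limma). Ccr4, the receptor of Ccl17 and Ccl22, was at 7.91 to 8.50 in day 60 CS lungs, against 7.18 and 7.36 in the day 60 pools, and at 7.17 to 7.77 in day 2 CS lungs, against 7.28 and 7.54 in the day 2 pools. It rose by 0.91 ± 0.14 at day 60 (adjusted p = 0.00218) and was at -0.01 ± 0.14 at day 2 (0.967), a difference between the responses of 0.93 ± 0.20 (0.0270). Ccr8, a receptor of T helper 2 and regulatory T cells, rose by 0.60 ± 0.12 at day 60 (adjusted p = 0.0113), was at -0.15 ± 0.12 at day 2 (0.493) and differed between the times by 0.76 ± 0.17 (0.0341). Ccr3, the receptor of Ccl24, was at 0.16 ± 0.13 at day 60 (adjusted p = 0.689) and at -0.11 ± 0.13 at day 2 (0.679).

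Markers of several leukocytes moved with the day 60 rise. Of all genes 3.35% were higher and 0.677% lower at day 60. Of 13 measured monocyte and recruited macrophage markers 10 rose and none fell, with Mmp12 at 3.24 ± 0.21 and Cd68 at 1.04 ± 0.14. The mean of that list was 11.11 to 11.35 in BLT1-/-KRasLA1 CS lungs and 10.93 to 11.45 in BLT1+/+KRasLA1 CS lungs, against 10.15 in the BLT1-/-KRasLA1 PBS pool and 10.39 in the BLT1+/+KRasLA1 PBS pool. Of 12 alveolar macrophage markers other than Chil3 and Mrc1, 5 rose and none fell, with Itgax at 1.05 ± 0.16. Their mean was 10.91 to 11.07 in BLT1-/-KRasLA1 CS lungs and 10.87 to 11.08 in BLT1+/+KRasLA1 CS lungs, against 10.68 in the BLT1-/-KRasLA1 PBS pool and 10.52 in the BLT1+/+KRasLA1 PBS pool. Of 13 neutrophil markers 3 rose and none fell, Mmp9 by 1.04 ± 0.19, S100a8 by 1.45 ± 0.35 and Cxcr2 by 1.42 ± 0.36. The neutrophil list mean was 8.69 to 9.25 in BLT1-/-KRasLA1 CS lungs and 8.55 to 9.39 in BLT1+/+KRasLA1 CS lungs, against 8.10 in the BLT1-/-KRasLA1 PBS pool and 8.37 in the BLT1+/+KRasLA1 PBS pool, so every CS lung was above both pools. Of 11 T cell markers 9 rose, with Icos at 1.07 ± 0.11, and of 11 dendritic cell markers 6 rose and 1 fell, with Fscn1 at 1.11 ± 0.13. The dendritic list mean was 10.10 to 10.16 in BLT1-/-KRasLA1 CS lungs and 10.03 to 10.11 in BLT1+/+KRasLA1 CS lungs, against 9.74 in the BLT1-/-KRasLA1 PBS pool and 9.84 in the BLT1+/+KRasLA1 PBS pool. The part of these cell types in the levels of the 7 genes was not tested.

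At day 2 the same lists moved otherwise: 5 of 13 monocyte and recruited macrophage markers rose and 2 fell, 3 of 12 alveolar macrophage markers rose and 1 fell, 1 of 11 dendritic cell markers rose and 7 fell, and 5 of 11 T cell markers fell and none rose. Of the 13 neutrophil markers 0 changed at day 2 (limma), with 3 at an unadjusted p under 0.05. Beside these counts, 8.03% of all genes were higher and 4.37% lower at day 2. Alveolar macrophage markers followed Chil3 and Mrc1 between the times, with 8 of 12 higher and none lower in day 60 than in day 2 CS lungs. Their median was 0.72, and 12.2% of all genes were higher and 13.8% lower. Between the pools 1 of the 12 was higher, with a median of 0.36, where 0.166% of all genes were higher and 0.231% lower. Neutrophil markers differed between the pools as Retnla did, with 7 of 13 lower at day 60, none higher and a median of -2.06. Their list mean was 8.10 in the BLT1-/-KRasLA1 and 8.37 in the BLT1+/+KRasLA1 PBS pool, against 10.16 in the BLT1-/- and 9.74 in the BLT1+/+ PBS pool of day 2. The part of this difference in the level of Retnla was not tested.

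Over the 16 arrays, Chil3 and Mrc1 were alike, with a Pearson r of 0.92, Ccl17 and Ccl22 had an r of 0.90 and Arg1 and Ccl24 of 0.86. Ccl17 was also close to Chil3 (r = 0.85) and to Mrc1 (0.82). Retnla had an r of -0.17 with Chil3 and of -0.19 with Mrc1 over all arrays. For deviations from the group mean within the 12 CS lungs, the sign was the other way, with 0.63 for Retnla with Chil3 and 0.49 with Mrc1. These values describe arrays that share 8 groups and carry no test. Among 18228 genes compared, those most like Retnla were the fibronectin gene Fn1 (r = 0.96), Sbno2 (0.91) and Serpina3n (0.90). The silica response of Fn1, which was chosen for its likeness on these same arrays, was 0.54 ± 0.09 at day 60 and 0.49 ± 0.09 at day 2. Most like Chil3 were Acp5 (0.97), H2-M2 (0.97) and Itgax (0.96), and most like Mrc1 were Atp6v0d2 (0.96), Trim29 (0.94) and Lipa (0.94). Itgax and Atp6v0d2 are alveolar macrophage markers, and Acp5 and Lipa encode lysosomal enzymes. Most like Ccl17 were Dcstamp (0.92), Ms4a8a (0.91) and Mmp12 (0.91), and most like Ccl22 were Slc26a4 (0.94), Gatm (0.94) and Ifngr2 (0.94). Arg1 was most like Mybpc2 (0.92), Itga7 (0.92) and Mapk13 (0.90), and Ccl24 like Fcrlb (0.87), Snrpa (0.84) and Pcx (0.82).

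Within the day 60 CS groups, single lungs were high or low across most of the genes. BLT1-/-KRasLA1 CS replicate 1 was the highest of its 3 lungs in 7 of 7 genes, as it was in 48.9% of all genes, and replicate 2 was the lowest in 6 of 7, as in 34.7% of all genes. BLT1+/+KRasLA1 CS replicate 1 was the highest in 6 of 7, as in 33.1% of all genes, and replicate 3 the lowest in 6 of 7, as in 43.6% of all genes. Markers of recruited macrophages ran with this in BLT1+/+KRasLA1 lungs, with a list mean of 11.45 in replicate 1 and 10.93 in replicate 3, but not in BLT1-/-KRasLA1 lungs, with 11.11 in replicate 1 and 11.17 in replicate 2. Alveolar macrophage markers averaged 11.07 in replicate 1 and 10.91 in replicate 2 of the BLT1-/-KRasLA1 group, and 11.08, 10.87 and 10.93 in replicates 1, 2 and 3 of the BLT1+/+KRasLA1 group, where replicate 2 and not replicate 3 was the lowest. In day 2 CS lungs no lung was the highest or the lowest in more than 4 of the 7.

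**Figure D4:**
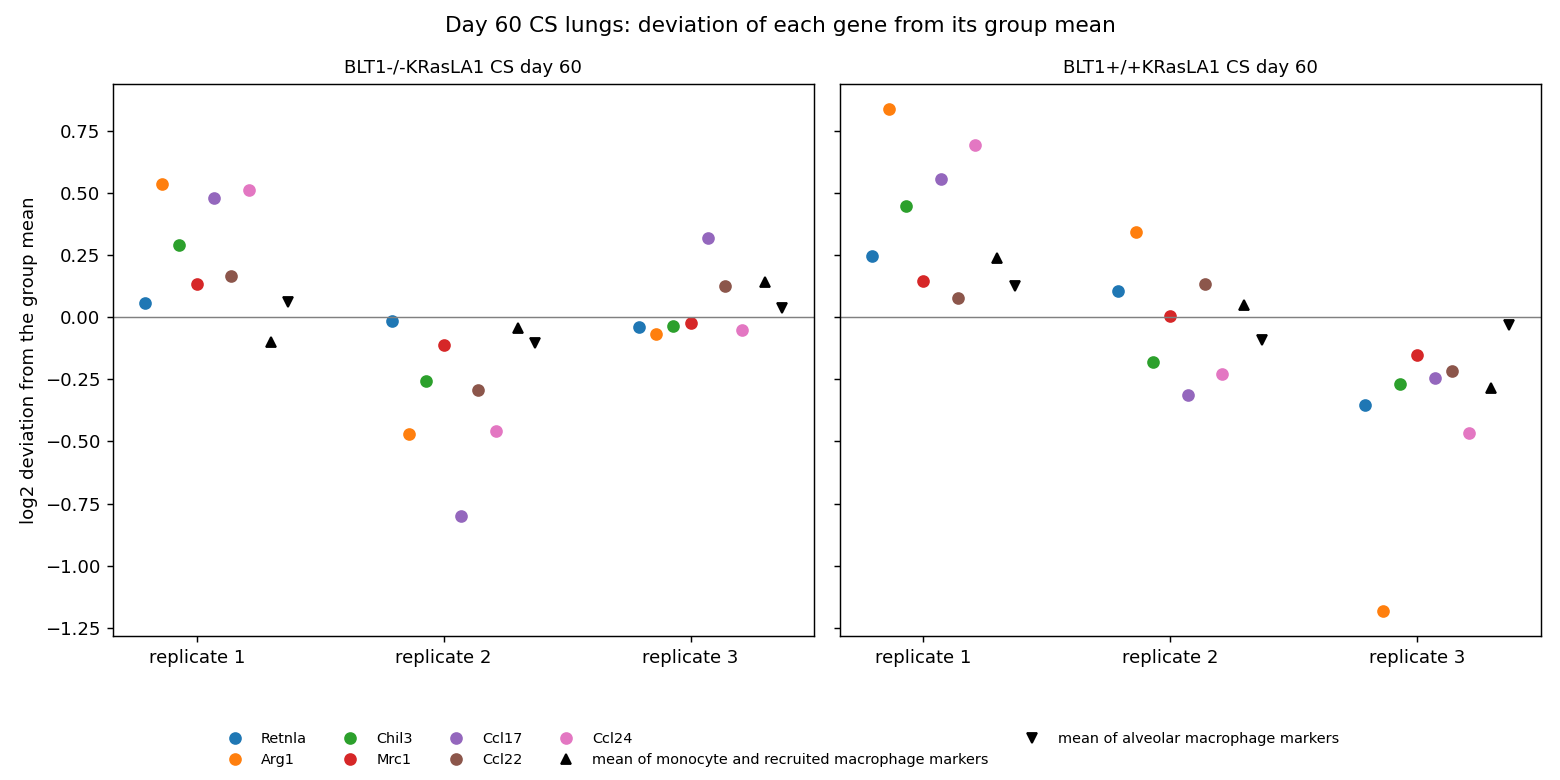
Deviation of each gene from the mean of its group, in log2 units, in the 3 CS lungs of each day 60 genotype, with the mean of the recruited macrophage and alveolar macrophage marker lists as triangles. Arg1 spread most, from 7.84 to 9.86 among the BLT1+/+KRasLA1 lungs, and the 7 genes lay above the mean together in replicate 1 of both genotypes.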

How the data were processed

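The deposited table holds log2 expression per probe set; per the submitters' processing notes the authors used RMA and Partek 6.6. The sources used here do not give the array design or the order of steps. RMA brings arrays to a common distribution, which hides changes in total RNA, and it narrows changes of dim probe sets. All 16 columns were matched by title. Of 35556 probe sets, 21789 had 1 symbol in the platform annotation, 1621 several and 12146 none. Only the first were used, the brightest per gene, and 0 symbols were updated. Positions and promoters are RefSeq's (GRCm38.p6), and 5 of the 7 genes had a promoter entry.

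Means of the 8 groups were fitted with limma 3.58.1 in R 4.3.3 (lmFit, eBayes with trend), with 8 residual degrees of freedom, all from CS lungs, and 5.40 prior ones. A PBS pool of 3 mice was assumed to vary like 1 CS lung. All 13 contrasts were tested two-sided with Benjamini-Hochberg adjustment over 19938 genes at 0.05. Errors are standard errors unless called SD, and intervals are 95%. P-values measure the spread between these lungs only, and the number of arrays limits precision. The fit was tested on simulated data. The genes, lists and comparisons were chosen with earlier results of these data known. Named are the 7 genes, their relatives, the 3 genes most like each by Pearson r (without predicted genes, small RNAs and antigen receptor segments) and up to 4 genes of a list with the smallest p.

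Same-numbered day 2 CS lungs deviated from their group means together, with correlations of 0.43, 0.20 and 0.34. The labels do not say what these lungs share. The main fit held no replicate block, so its results are unpaired, and blocks were run only as alternatives. Alternatives were quantile and cyclic loess normalization, no trend, array weights, no dim genes, the mean of probe sets, arrays of 1 day, replicate blocks, the other genotype's pool and leaving out each array.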

Additional observations from a re-analysis of the deposited data

Results flagged for a closer look

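Retnla had a silica response at day 60 that was larger in BLT1-/-KRasLA1 than in BLT1+/+KRasLA1 lungs by 1.06 ± 0.22 on the log2 scale (SE, limma interaction, adjusted p = 0.9999). It is listed because its unadjusted p is under 0.05, and after adjustment over all genes it is no call. The CS lungs were at 13.15 to 13.25 in BLT1-/-KRasLA1 and 12.75 to 13.35 in BLT1+/+KRasLA1 mice, and the pools were at 11.49 in BLT1-/-KRasLA1 and 12.46 in BLT1+/+KRasLA1 mice. Both pools carried Y-linked RNA, with Eif2s3y at 9.04 in the BLT1-/-KRasLA1 and 9.68 in the BLT1+/+KRasLA1 pool, and the part of this in the level of Retnla was not tested.

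The difference of the mean silica response at day 60 from that at day 2 had an unadjusted p under 0.05 for 3 genes: Chil3 at 0.73 (limma, adjusted p = 0.158), Ccl22 at 0.55 (adjusted p = 0.160) and Retnla at 0.47 (adjusted p = 0.163). None passed after adjustment, and 2804 of all 19938 genes had an unadjusted p under 0.05 in the same comparison. The KRasLA1 allele goes with day 60, so day and allele cannot be told apart.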

How the results depend on the processing

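Of the responses averaged over genotypes, Retnla at day 2 passed under all 23 alternatives run, Retnla and Ccl22 at day 60 under 22 each, Chil3 at day 60 and Ccl22 and Arg1 at day 2 under 21 each and Ccl17 at day 60 under 20. The day 60 response of Retnla ran from 0.64 to 1.70 over these. Both ends come from the additive fits without 1 pool, which return the response of 1 genotype and not the average. These fits are among the alternatives counted here, so a call lost in them is not a lost call of the average. Over all single-gene results, 1612 values kept their direction and their side of the threshold, 22 lost a call, 38 gained one and 22 turned sign. Without a trend, 0 genes passed in BLT1-/- and 0 in BLT1+/+ lungs at day 2. Array weights gave 4 in BLT1+/+KRasLA1 lungs at day 60 and 2 between pools. With arrays of the same day only, 5 passed in the mean at day 2 and 0 in BLT1+/+KRasLA1 lungs. With the genotypes' pools exchanged, which was added after seeing the data, 1 passed in BLT1-/-KRasLA1 and 2 in BLT1+/+KRasLA1 lungs at day 60, and 2 in BLT1-/- and 0 in BLT1+/+ lungs at day 2. Leaving out 1 array at a time gave 2 to 3 genes for BLT1-/-KRasLA1 and 0 to 3 for BLT1+/+KRasLA1 lungs at day 60. At day 2 it gave 0 to 1 for BLT1-/- lungs and 0 to 2 for BLT1+/+ lungs. For the difference between the mean responses it gave 0 to 1. No such range is given for the means, because the fits without 1 pool return the response of 1 genotype. In BLT1-/-KRasLA1 lungs at day 60, Ccl17 gained its call without their replicate 2 (adjusted p = 0.0272), and Chil3 without BLT1+/+KRasLA1 CS replicate 1 (0.0157) or replicate 3 (0.0426). The causes were not tested.

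The replicate block at day 2, also added after seeing the data, gave 2 genes in BLT1+/+ lungs (Ccl22 passing beside Retnla) and changed no other call. Day 60 numbers correlated at 0.09, 0.01 and 0.06, and the labels do not say whether those lungs share more than a number. A replicate block within each day gave 2 genes in BLT1-/- and 3 in BLT1+/+ lungs and 5 in the mean at day 2, 4 in each day 60 genotype, 1 for the difference between the mean responses and 2 between pools.

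Sign changes concerned results that were not called. Leaving out 1 array at a time, the difference of BLT1-/- from BLT1+/+ CS lungs at day 2 ran from -0.21 to 0.36 for Arg1, -0.024 to 0.16 for Chil3, -0.12 to 0.24 for Ccl17, -0.018 to 0.15 for Ccl22 and -0.14 to 0.16 for Ccl24. At day 60 it ran from -0.014 to 0.63 for Ccl17, -0.10 to 0.16 for Ccl22, -0.10 to 0.046 for Mrc1, -0.51 to 0.093 for Ccl24 and -0.086 to 0.21 for Retnla, and the BLT1-/-KRasLA1 response of Ccl24 from -0.057 to 0.43. With array weights the day 60 difference was -0.040 for Retnla, -0.016 for Ccl17 and -0.074 for Ccl22, and with cyclic loess 0.0014 for Mrc1. Low signal limits what could be seen of Ccl24, Il4, Il5, Ccr3 and Retnlb.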
